A study of Rattus norvegicus with 15 samples.

Results

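rno-miR-31a-5p, called miR-31a-5p from here on, is the mature guide strand of 1 rat miRNA gene, and its level was followed in the kidney cortex of cystic PCK rats on 3 salt diets. It is 1 row of 600 in the table of mature miRNA counts and was found there by its name. It was selected on its measured counts: the level was already seen to be higher on the diet of 0.01% NaCl than on that of 0.4%. Its values by diet are therefore a description, and no p-value is given for them.

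All libraries came from rats of the strain PCK/CrljCrlPkhd1pck/CRL, which carry a mutant Pkhd1 gene and develop the cysts of a recessive polycystic kidney disease. The rats arrived at 4 weeks of age and ate chow with 0.01%, 0.4% or 4% NaCl from 6 weeks of age for 8 weeks, with 5 cortex libraries per diet. No group had a normal Pkhd1 gene, so every comparison is between diets within cystic kidneys. According to the protocol in the labels, 2 to 3 rats were pooled and each condition had 2 pools, which is fewer than the 5 libraries listed, so libraries of a diet may share animals, and the spread between them may be partly technical.

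miRNAs are short RNAs that load into Argonaute proteins and lower the output of mRNAs that pair with their seed, bases 2 to 8 of the mature strand. miR-31 is best known from epithelia, where it takes part in keratinocyte growth, wound closure and inflammation of skin and gut, and its gene sits beside the tumour suppressor gene Cdkn2a in mammals. Its hairpin gives a major arm, miR-31a-5p, and a scarce partner arm, miR-31a-3p.

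The sequences below are those of the rat hairpin, of its arms and of miR-31b, the miRNA named on the opposite strand, and they show which reads each name can stand for. They are from RefSeq on build GRCr8. In the hairpin (chr5:108714849-108714954, minus strand) the capitals mark both mature arms, the 5′ arm first. In the mature sequences, 5′ to 3′, the capitals mark the seed.
mir-31a hairpin: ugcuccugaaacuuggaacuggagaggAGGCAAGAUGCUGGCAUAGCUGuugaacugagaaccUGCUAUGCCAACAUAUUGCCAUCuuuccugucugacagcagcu
miR-31a-5p: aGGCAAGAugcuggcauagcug
miR-31a-3p: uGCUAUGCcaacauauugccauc
miR-31b: cUAUGCCAgcaucuugccu

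The 22 bases of miR-31a-5p lie at chr5:108714906-108714927 on the minus strand and the 23 bases of miR-31a-3p at chr5:108714869-108714891. miR-31b is the reverse complement of bases 1 to 19 of miR-31a-5p, and its own level was not analysed here. The Mir31 gene overlaps the miR-31b gene, Mir3554, and the span of a long noncoding RNA gene, LOC130062807, and the nearest protein-coding genes are Ifne on one side and C5h9orf85, followed by Mtap and Cdkn2a, on the other. No miRNA gene other than this pair lies within 1 Mb of it. RefSeq gave a mature sequence for 403 of the 445 rat names counted, and 1 of these, miR-31a-5p itself, has the seed GGCAAGA. No other counted rat name with a sequence therefore shares its seed.

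miR-31a-5p was a miRNA of middling level. It held rank 190 of 600 names by mean level, at 68.1 scaled CPM over the 15 libraries. Scaled CPM are counts per 1e6 reads (CPM) after the library total is multiplied by its TMM factor, a correction for libraries in which a few very abundant miRNAs take a large share. The names next above it were miR-504 (69.7 scaled CPM), miR-203b-5p (72.3) and miR-3557-3p (73.4). Those next below were miR-10b-5p (64.9), mdo-miR-7341-5p (64.2) and miR-30c-1-3p (63.3). These levels depend on how well each sequence ligates to adapters, so the order is that of reads and not of molecules.

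**Figure D1:**
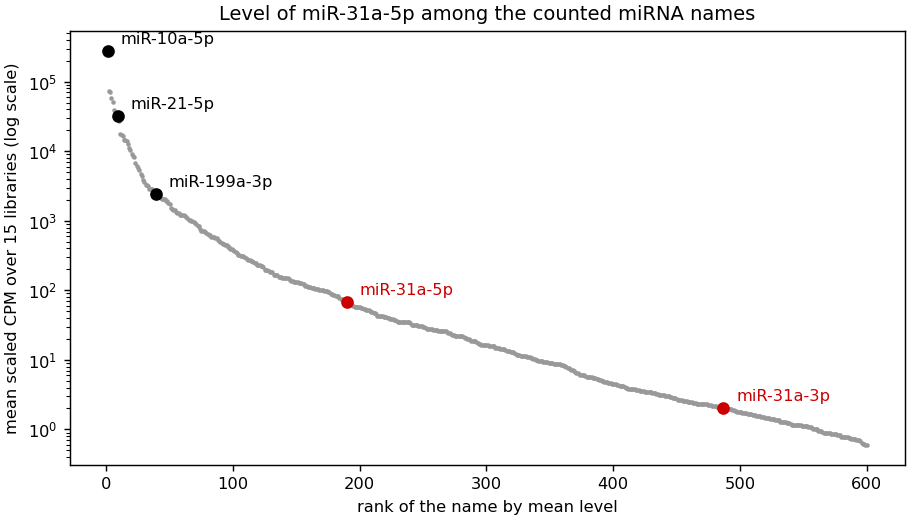
Mean level of each counted miRNA name in scaled CPM (log scale, y axis) against its rank (x axis), over 15 libraries. miR-31a-5p stands at rank 190 with 68.1 scaled CPM and miR-31a-3p at rank 487 with 2.00, and the 3 black points mark the abundant miR-10a-5p, miR-21-5p and miR-199a-3p.

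On 0.01% NaCl the 5 libraries held 599, 573, 755, 484 and 483 reads of miR-31a-5p, or 115, 98.7, 126, 75.0 and 79.0 scaled CPM. On 0.4% NaCl they held 290, 441, 225, 268 and 195 reads, or 52.5, 58.8, 45.2, 48.6 and 31.7 scaled CPM. On 4% NaCl they held 375, 312, 442, 269 and 160 reads, or 65.6, 52.8, 80.5, 58.5 and 34.5 scaled CPM. Every library on 0.01% NaCl was above every library on 0.4% NaCl, and the 4% libraries reached into both ranges. In whole cortex, fewer cells of a type and less of its RNA per cell cannot be told apart.

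The means were 98.6 ± 21.96 scaled CPM on 0.01% NaCl, 47.4 ± 10.1 on 0.4% and 58.4 ± 16.9 on 4% (SD, n = 5 each). The level thus stood in the order 0.01%, 4%, 0.4% NaCl from high to low, and the last 2 did not differ beyond their spread. Within its own library miR-31a-5p ranked between 153 and 185 on 0.01% NaCl, between 194 and 238 on 0.4% and between 182 and 239 on 4%. Without the TMM factors the 0.01% libraries still lay above the 0.4% libraries, at 61.7 to 121 CPM against 35.0 to 59.7 CPM.

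**Figure D2:**
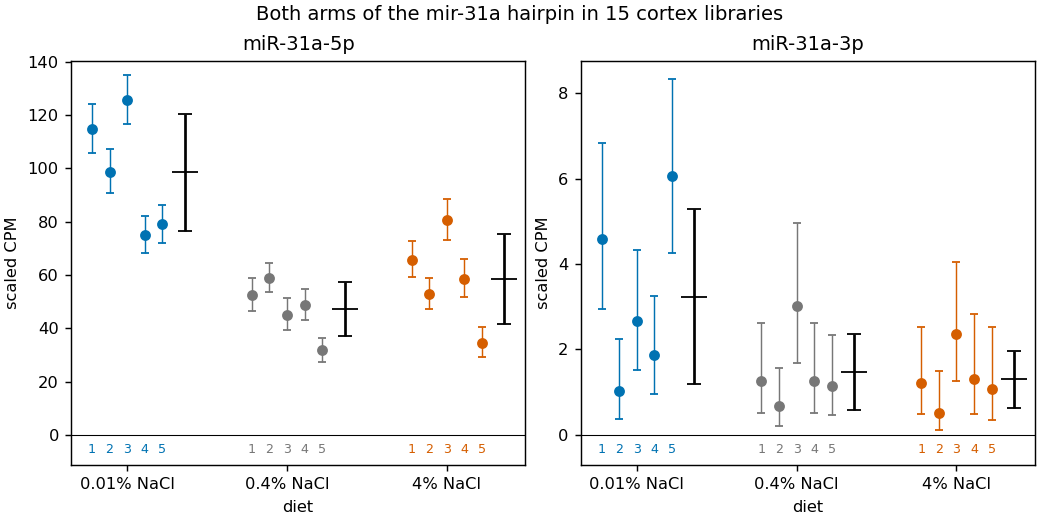
Scaled CPM (y axis) of the 5′ and 3′ arms of mir-31a in each library, by diet (x axis); coloured bars are exact 95% Poisson intervals, which cover counting error only, digits number the libraries and black bars give mean ± SD of 5 libraries. For miR-31a-5p the 0.01% libraries lie between 75.0 and 126 and the 0.4% libraries between 31.7 and 58.8, and for miR-31a-3p the diets overlap.

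The spread between libraries of a diet was far above counting error. The coefficient of variation of miR-31a-5p was 22.3% on 0.01% NaCl, 21.4% on 0.4% and 28.9% on 4%, where counting alone gives 4.21%, 6.17% and 6.02%. Its within-diet SD was 0.374 on the log2 scale, against a median of 0.312 for the 40 names nearest to it in level, and 237 of 339 names with at least 10 scaled CPM had a smaller SD.

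In the fit over all names, the log2 fold change of miR-31a-5p was 1.06 ± 0.22 (SE) for 0.01% over 0.4% NaCl, a ratio of 2.08. It was 14th from the top of 519 tested names. The groups did not overlap with 0.01% on top for 36 of the 519 names (6.94%), and miR-31a-5p is 1 of those 36. Leaving out 1 library at a time gave 0.92 to 1.14, with the minimum when library 5 on 0.4% NaCl was removed. Scaled by totals in place of TMM the value was 0.89, but the median of all names then stood at -0.19, and relative to that median miR-31a-5p was at 1.08.

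For 4% over 0.4% NaCl the log2 fold change was 0.30 ± 0.22 (SE), and for 0.01% over 4% NaCl it was 0.75 ± 0.22, a ratio of 1.69. The 0.01% and 4% libraries overlapped: library 3 of the 4% diet, at 80.5 scaled CPM, was above libraries 4 and 5 of the 0.01% diet, and 23 of the 25 pairs of libraries had the 0.01% library on top. These comparisons share libraries with the first and are no separate evidence. In the authors' deposited table from edgeR, whose ratios run the other way, the log2 fold change was -1.08 for 0.4% over 0.01% NaCl, -0.26 for 0.4% over 4% and -0.76 for 4% over 0.01%. In the authors' deposited table from DESeq2 the same ratios were -0.95, -0.17 and -0.68.

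The partner arm, miR-31a-3p, was near the limit of counting. It had 24, 6, 16, 12 and 37 reads on 0.01% NaCl, 7, 5, 15, 7 and 7 on 0.4%, and 7, 3, 13, 6 and 5 on 4%. It averaged 3.24 ± 2.05 scaled CPM on 0.01% NaCl, 1.47 ± 0.90 on 0.4% and 1.30 ± 0.68 on 4% (SD, n = 5 each), and all diets overlapped. This arm was not used to pick miR-31a-5p, so its test is given, although both arms come from the same hairpin and libraries.

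For 0.01% over 0.4% NaCl the log2 fold change of miR-31a-3p was 1.16 ± 0.49 (SE) and did not pass edgeR's quasi-likelihood test (adjusted p = 0.111 after Benjamini-Hochberg). Without library 3 of the 0.4% diet it was 1.57 and passed (adjusted p = 0.039 by the same edgeR test). In the other 25 of 26 refits it did not pass. For 0.01% over 4% NaCl it was 1.31 ± 0.50 (edgeR adjusted p = 0.0713). That value passed without library 2 of the 0.01% diet (1.51, edgeR adjusted p = 0.0359) or library 3 of the 4% diet (1.62, edgeR adjusted p = 0.0491). It did not pass in the other 24 of 26 refits. For 4% over 0.4% NaCl it was -0.14 ± 0.53 (edgeR adjusted p = 0.996), and its sign changed in 3 of 25 refits.

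The 3′ arm gave 3.18% of the reads of both arms on 0.01% NaCl (95 reads beside 2894 of the 5′ arm, exact Clopper-Pearson 95% interval 2.58 to 3.87%), 2.81% on 0.4% (2.02 to 3.79%) and 2.14% on 4% (1.48 to 2.97%). These intervals cover counting error only and overlap. By library the share ran from 1.04 to 7.12% on 0.01% NaCl, from 1.12 to 6.25% on 0.4% and from 0.952 to 3.03% on 4%. On 0.01% NaCl the intervals of library 5 (5.06 to 9.67%) and library 2 (0.381 to 2.24%) did not overlap, so libraries of 1 diet differed by more than counting error. The share was not tested between diets.

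miRNAs known from kidney injury, cystic kidney, epithelial wounds and NF-kB signalling were set beside miR-31a-5p, since it is discussed in the same settings. The 4 lists were matched to 50 counted names, all of them tested, and were written with earlier results of these data known. Over all 519 names 7.71% were higher and 9.06% lower on 0.01% than on 0.4% NaCl (edgeR, quasi-likelihood, adjusted p under 0.05), with a median log2 fold change of -0.0027. Of the 50, 17 passed.

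Of the 28 tested members of the list on kidney injury and fibrosis, 5 were higher on 0.01% NaCl, 4 were lower and 19 did not pass, with a median of 0.417. The 5 were miR-21-5p, a miRNA that builds up in kidneys with injury or fibrosis, both arms of the mesenchymal miR-199a, miR-34b-3p of a p53-responsive locus, and miR-224-5p. miR-34b-3p averaged 11.3 ± 1.53 scaled CPM on 0.01% NaCl and 5.84 ± 0.91 on 0.4% (SD, n = 5 each), a log2 fold change of 0.95 ± 0.22 (edgeR adjusted p = 0.00655). miR-224-5p averaged 13.5 ± 3.27 scaled CPM on 0.01% NaCl and 5.01 ± 1.39 on 0.4% (SD, n = 5 each), with 1.43 ± 0.32 (edgeR adjusted p = 0.00517). The 4 lower members were miR-29c-3p, a repressor of collagen mRNAs (-0.56), miR-194-5p (-0.60), miR-489-3p from an intron of Calcr (-0.87) and miR-382-5p of the Dlk1-Dio3 imprinted cluster (-1.46).

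In the epithelial wound and inflamed skin list 4 of 17 were higher and 3 lower, with a median of 0.358. The higher ones were miR-205 (1.81 ± 0.40), miR-200c-3p (1.17 ± 0.24) and miR-141-3p (1.04 ± 0.20), which help to maintain epithelial identity, and miR-21-5p. The lower ones were miR-184 (-1.31), miR-203a-3p (-0.80), a miRNA of keratinocyte differentiation, and miR-378a-3p (-0.49). miR-200c and miR-141 belong to 1 cluster, so their changes are not separate.

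In the NF-kB-responsive list 4 of 12 were higher and none lower, with a median of 0.806: miR-9a-5p (1.25 ± 0.27), miR-224-5p, miR-147 (0.85 ± 0.25) and miR-21-5p. The best-known member, miR-146a-5p, did not pass, at -0.15 ± 0.12 (edgeR adjusted p = 0.42). In the cystic kidney disease list 3 of 15 matched names were higher and none lower, with a median of 0.368: miR-200c-3p, miR-199a-5p and miR-21-5p. The lists overlap, and miR-21-5p is in each of the 4.

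Of the 17 calls 11 held in every refit that tested them and 6 did not. Among the 11, miR-34b-3p and miR-224-5p were low, at 8.74 and 8.47 scaled CPM over all libraries. They were tested in 26 of the 27 refits, as the filter at a mean of 10 CPM left them out. For miR-21-5p (0.83 ± 0.26, edgeR adjusted p = 0.0362) the call ended when library 1, 3 or 5 on 0.01% NaCl was removed, as it did for 2, 3 or 5 on 0.4% and for 3 on 4%, with values of 0.69 to 0.85. For miR-147 it ended when 1, 3 or 5 on 0.01% NaCl, or 1 or 2 on 0.4%, was removed (0.72 to 0.83). For miR-199a-5p (0.71 ± 0.23) the removals that ended it were 1, 2, 3 and 5 on 0.01% NaCl, 2, 4 and 5 on 0.4%, and 1 and 2 on 4% (0.56 to 0.72). For miR-199a-3p (0.64 ± 0.18) they were 3 on 0.01% NaCl (0.60) and 5 on 0.4% (0.54), and for miR-382-5p only 5 on 0.4% (-1.20). Scaling by totals alone ended the calls of miR-21-5p, miR-147 and both miR-199a arms. limma-voom ended that of miR-184 (-1.21). Removing from each diet its library with the highest share of reads under names from other species ended all of these but miR-382-5p.

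Between 4% and 0.4% NaCl no companion passed, as no name did (0 of 519, 0%, by edgeR's quasi-likelihood test). DESeq2 and limma-voom also called 0, and 27 names had an unadjusted edgeR p under 0.05. The list medians were -0.0207 for injury and fibrosis, -0.0118 for cystic kidney disease, 0.11 for epithelial wounds and 0.0577 for NF-kB.

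Between 0.01% and 4% NaCl, 7.32% of the 519 names were higher and 13.1% lower on 0.01% (edgeR quasi-likelihood test), and 15 of the 50 companions passed. In the injury list 3 were higher, both arms of miR-21 and miR-224-5p, and 5 lower, miR-29c-3p, miR-194-5p, miR-382-5p, miR-489-3p and the lymphocyte miRNA miR-150-5p. In the epithelial wound list 4 were higher and 2 lower, in the NF-kB list 3 were higher, and in the cystic list 3 were higher. Kept in every refit were miR-205 (1.59), miR-9a-5p (1.24), miR-21-3p (1.15), miR-29c-3p (-0.57), miR-200c-3p (1.06), miR-141-3p at 0.85, miR-489-3p (-1.04) and miR-184 (-2.11). The other 7 were miR-21-5p (0.98), miR-224-5p (0.96), miR-25-3p (0.37), miR-194-5p (-0.50), miR-203a-3p (-0.68), miR-150-5p (-1.11) and miR-382-5p (-1.35). miR-21-5p missed the threshold with totals alone, and miR-194-5p when library 5 on 4% NaCl was removed. miR-150-5p missed it when 1 or 5 on 0.01% NaCl or 3 on 4% was removed, and miR-25-3p when 1, 3 or 5 on 0.01% NaCl or 1 on 4% was. miR-382-5p missed it when 1, 3 or 5 on 0.01% NaCl, or 4 or 5 on 4%, was removed, and miR-224-5p when 1, 3 or 5 on 0.01% NaCl, or 2, 3 or 4 on 4%, was. Scaling by totals alone or by upper quartiles also ended the calls of miR-25-3p and miR-224-5p, and for miR-224-5p so did a fit of those diets alone or without the libraries richest in other-species names. miR-203a-3p missed it in 14 of 27 refits, 8 of them with 1 library removed: 1, 2, 3 or 4 on 0.01% NaCl, 2 on 0.4%, or 2, 3 or 5 on 4%.

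**Figure D3:**
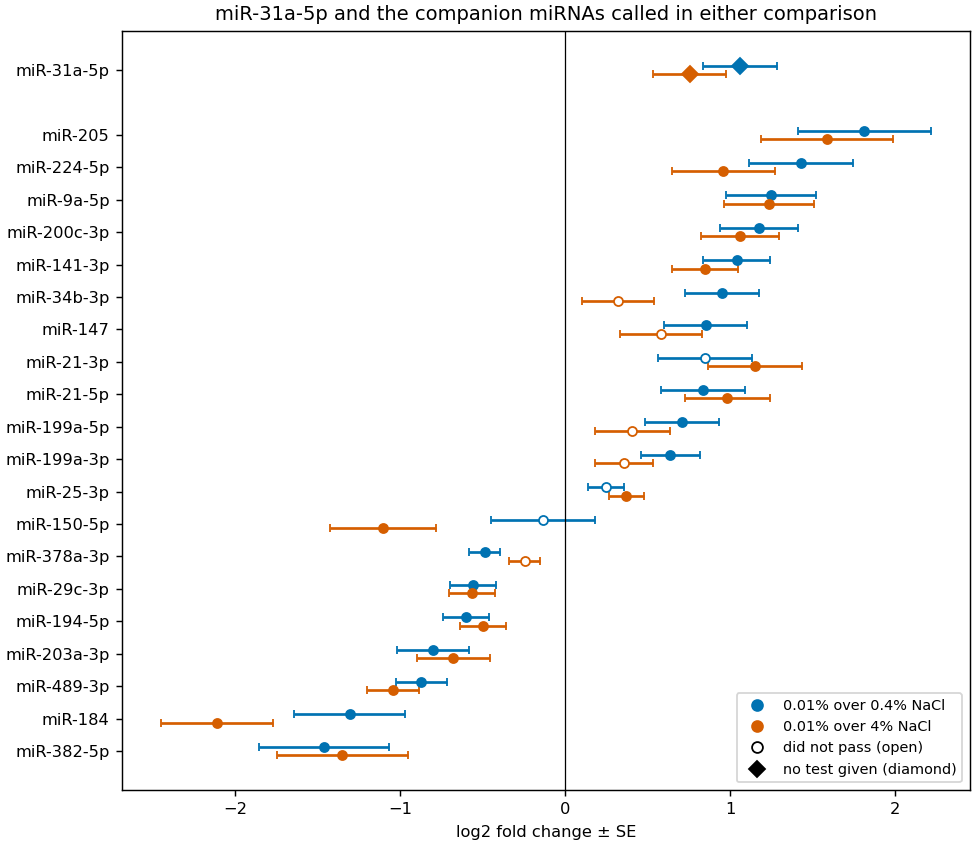
Log2 fold change ± SE (x axis) of miR-31a-5p and of the companion miRNAs called in either comparison (rows), for 0.01% over 0.4% NaCl (blue) and 0.01% over 4% NaCl (orange); filled points passed the edgeR test, open ones did not, and miR-31a-5p has no test. miR-31a-5p, at 1.06 and 0.75, lies near miR-141-3p, at 1.04 and 0.85.

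miR-21-5p stood far above miR-31a-5p in level. It averaged 45990 ± 9737 scaled CPM on 0.01% NaCl, 25810 ± 6029 on 0.4% and 23290 ± 7777 on 4% (SD, n = 5 each). Library 5 of the 4% diet was the lowest of all 15 for miR-21-5p, at 9654 scaled CPM, and the lowest of its diet for miR-31a-5p. Library 5 of the 0.4% diet was the lowest of its diet for both.

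The names whose levels moved most like miR-31a-5p were sought among 338 tested names with a mean of at least 10 scaled CPM. Likeness was the Pearson correlation of log2 scaled CPM over the 15 libraries, first after each diet's mean was subtracted. By this measure the 8 most alike were miR-34c-5p (r = 0.865), bta-miR-3604 (0.836), miR-199a-3p (0.83), miR-92a-3p (0.826), mmu-miR-1247-5p (0.825), miR-181d-5p (0.816), miR-106b-3p (0.805) and miR-25-3p (0.801). The median over all 338 was 0.0162. bta-miR-3604 is the name of a cattle homolog that kept a nearly fixed ratio to miR-199a-3p, with an SD of 0.0297 on the log2 scale, so both may count the same reads. No name with a mean of at least 200 reads kept such a ratio to miR-31a-5p, the steadiest having an SD of 0.254.

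The mature sequences of 3 of the alike names show that their seeds, in capitals, are not that of miR-31a-5p.
miR-34c-5p: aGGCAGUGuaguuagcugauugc
miR-199a-3p: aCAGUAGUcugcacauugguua
miR-181d-5p: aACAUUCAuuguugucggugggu

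Spearman's rho for the same deviations was 0.775 for miR-34c-5p, 0.714 for miR-199a-3p and 0.571 for miR-181d-5p. Library 5 of the 0.4% diet and library 5 of the 4% diet stood low for miR-31a-5p, miR-34c-5p and miR-199a-3p alike and carried much of the likeness. Without this pair, an alternative chosen after the values were seen, r over 13 libraries was 0.711 for miR-34c-5p, 0.618 for miR-199a-3p, 0.509 for miR-181d-5p and 0.418 for miR-25-3p, and 4 of the 8 names stayed among the 8 most alike. Without them the log2 fold change of miR-31a-5p was 0.94 for 0.01% over 0.4% NaCl, 0.31 for 4% over 0.4% and 0.62 for 0.01% over 4%.

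With the diet means left in, r also takes up the difference between diets. The 8 most alike were then bta-miR-3604 (0.917), miR-199a-3p (0.906), miR-187-3p (0.906), miR-181d-5p (0.9), miR-34c-5p (0.887), miR-9a-5p (0.875), miR-181c-3p (0.864) and miR-106b-3p (0.863), and 5 of them were also in the first set. The 4 least alike, at -0.905 for miR-381-3p, -0.902 for miR-411-5p, -0.896 for miR-300-3p and -0.88 for miR-134-5p, all belong to the Dlk1-Dio3 imprinted cluster. Of these, miR-411-5p was also among the 4 least alike by deviations (-0.736), with miR-345-3p (-0.741), miR-29c-3p (-0.737) and miR-339-5p (-0.722). Without the pair of low libraries left out above, r by deviations over 13 libraries was -0.586 for miR-411-5p and -0.485 for miR-345-3p. It was -0.261 for miR-29c-3p and -0.28 for miR-339-5p, so that pair carried much of their opposition. The correlations describe 15 libraries, or 13 without the pair, that share scaling and perhaps animals. No p is given for names picked as the extremes of 338.

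**Figure D4:**
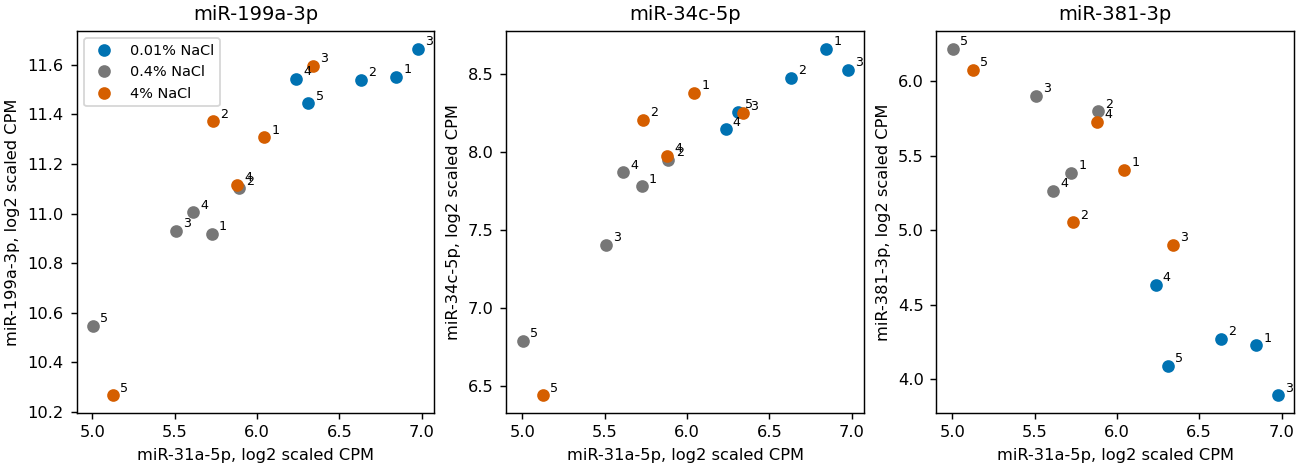
Log2 scaled CPM of miR-199a-3p, miR-34c-5p and miR-381-3p (y axes) against that of miR-31a-5p (x axes) in 15 libraries; colours give the diet and digits the library. The first 2 rise with miR-31a-5p (r = 0.906 and 0.887), miR-381-3p runs the other way (-0.905), and libraries numbered 5 of the 0.4% and 4% diets sit at the low end for miR-31a-5p.

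Depth and some of the cell markers differed between diets beside these values. Libraries held 5767723 to 7826411 reads on 0.01% NaCl, 4789739 to 7384275 on 0.4% and 4167498 to 5420830 on 4%, and TMM factors ran from 0.781 to 1.01, from 0.922 to 1.15 and from 1.03 to 1.11. Names of homologs in other species took 8.05 to 13.5% of reads on 0.01% NaCl, 11.1 to 15.8% on 0.4% and 14 to 14.3% on 4%. The kidney epithelium markers had a summed level of at least 285400 scaled CPM in every library. Most of it was miR-10a-5p, which averaged 276900 scaled CPM over all libraries, while miR-204-5p averaged 592 and miR-10b-5p 64.9. Of the 10 kidney epithelium markers 1, miR-194-5p, was lower on 0.01% than on 0.4% NaCl, where 9.06% of all 519 names were lower. Between 0.01% and 4% NaCl, miR-10a-5p (0.61) and miR-30a-5p (0.37) were higher and miR-194-5p (-0.50) was lower on 0.01%. Over all 519 names 7.32% were higher and 13.1% lower in that comparison. The calls of miR-10a-5p and miR-30a-5p were not followed through the refits.

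Of the 6 smooth muscle and fibroblast markers, 4 were higher on 0.01% than on 0.4% NaCl and none lower (edgeR quasi-likelihood test). Over all 519 names 7.71% were higher and 9.06% lower. The summed level of the 6 was 44110 to 76330 scaled CPM on 0.01% NaCl, 21030 to 38590 on 0.4% and 25770 to 32960 on 4%. Most of it was miR-143-3p, which averaged 49600 scaled CPM on 0.01% NaCl, 27920 on 0.4% and 24660 on 4%. The 4 higher markers were miR-143-3p (0.83), miR-145-3p (0.58) and both arms of miR-199a. miR-145-5p (0.50) and miR-214-3p (0.64) did not pass, and none of the 6 was at 0. miR-143 and miR-145 belong to 1 cluster and the miR-199a arms to 1 miRNA, so their changes are not separate. By deviations from diet means, the correlation with miR-31a-5p was 0.83 for miR-199a-3p, 0.689 for miR-199a-5p and 0.715 for miR-214-3p. It was 0.2 for miR-143-3p, 0.286 for miR-145-3p and -0.104 for miR-145-5p. Without library 5 of the 0.4% and 4% diets, only miR-199a-3p stayed high, at 0.618. The others were then at 0.171 for miR-199a-5p, 0.296 for miR-214-3p, -0.165 for miR-143-3p, -0.0187 for miR-145-3p and -0.0642 for miR-145-5p. Between 0.01% and 4% NaCl, 2 were higher, miR-143-3p (1.01) and miR-145-3p (0.60). The calls of miR-143-3p and miR-145-3p were not followed through the refits. The part of the 6 markers in the level of miR-31a-5p was not tested. All 6 leukocyte markers were detected, none passed between 0.01% and 0.4% NaCl and 1, miR-150-5p, was lower on 0.01% than on 4% (-1.11), and their sums were 3102 to 3489 scaled CPM on 0.01% NaCl, 2618 to 4049 on 0.4% and 2375 to 5471 on 4%. Of 3 markers of stratified epithelium and urothelium 1 was higher, miR-205, and 2 were lower on 0.01% than on 0.4% NaCl and likewise than on 4%. These 3 are also in the epithelial wound list, so their calls are those given above. The call of miR-184 against 0.4% NaCl ended in 2 of 27 refits and that of miR-203a-3p against 4% in 14. The sums of the 3 markers were 317 to 535 scaled CPM on 0.01% NaCl, 384 to 795 on 0.4% and 397 to 685 on 4%. Of 3 counted neural markers 1 was higher on 0.01% than on 0.4% NaCl and than on 4%, miR-9a-5p, which is also in the NF-kB list. The others, miR-9a-3p (0.73 over 0.4% NaCl) and miR-128-3p (-0.043), did not pass against either diet. The sums of the 3 neural markers were 456 to 711 scaled CPM on 0.01% NaCl, 274 to 412 on 0.4% and 285 to 439 on 4%. The part of these markers in the level of miR-31a-5p was not tested either. None of 4 endothelial, 3 red blood cell and 2 tested striated muscle markers passed in either comparison, and the liver marker miR-122-5p was not analysed here.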

How the data were processed

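Small RNA from rat kidney cortex was sequenced from TruSeq libraries on an Illumina instrument, per the labels' protocols. The authors deposited raw read counts for 600 mature miRNA names. cutadapt, Bowtie and DESeq are listed in the submitters' processing notes. Not given in the sources used here are the build, the source of miRNA names and how reads with several matches were counted. The authors also deposited log2 fold changes from DESeq2 and edgeR, per the file headers. The 90 columns of counts repeated in those tables were not used.

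The diet label set each library's group. No pair of libraries within a diet (30 pairs) agreed within counting noise (chi-square over degrees of freedom at least 27.4), so none was taken for a repeat deposit of another. This does not show that they came from separate animals or pools. Replicate numbers were given in accession order and pair nothing. p-values set differences between diet means against the spread between these libraries. As libraries of a diet may share animals, these p-values may not speak for separate animals.

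Counts were fitted with edgeR 4.0.16 in R 4.3.3: filterByExpr (519 names kept), scaling by TMM, and a robust quasi-likelihood fit of 3 diet means that leaves 12 residual degrees of freedom. A name was called where its adjusted p (Benjamini-Hochberg, over all 519) was under 0.05. Correlations used log2 CPM with a prior count of 2. DESeq2 1.42.0 and limma-voom (limma 3.58.1), other scalings, filters and left-out libraries were alternatives.

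miR-31a-5p and all lists were chosen with earlier results of these data known. Named were the arms of mir-31a, the 3 names above and below miR-31a-5p in level, the 8 most and 4 least alike, and called list members. Of 56 names written in the companion lists 50 were matched to a counted name and of 41 marker names 38 were. The others were not analysed as list members. Among them, miR-182-5p of the cystic kidney disease list is counted under the name miR-182, which the matching missed.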

Additional observations from a re-analysis of the deposited data

Results flagged for a closer look

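In 3 of 66 groups of 5 libraries, 1 library lay far from the other 4, where chance flags about 1 group in 20. miR-31a-3p had 3.01 scaled CPM in library 3 of the 0.4% diet, where the next highest library had 1.27, and this library also decided whether miR-31a-3p passed between 0.01% and 0.4% NaCl. miR-21-5p had 9654 scaled CPM in library 5 of the 4% diet, where the next lowest had 24130. miR-489-3p had 15.67 scaled CPM in library 2 of the 0.01% diet, where the next highest had 13.31.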

How the results depend on the processing

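miR-31a-5p kept its sign in all 3 comparisons under every alternative run, with log2 fold changes of 0.92 to 1.14 for 0.01% over 0.4% NaCl, 0.17 to 0.42 for 4% over 0.4% and 0.62 to 0.87 for 0.01% over 4% when 1 library was left out, and of 0.89 to 1.09, 0.23 to 0.37 and 0.52 to 0.80 under the 12 others. For 0.01% over 0.4% NaCl the kept sign is no check. miR-31a-5p was selected on that difference, and no libraries of those diets overlapped. Library totals only gave the lowest value for both comparisons of the 0.01% diet. Called names between 0.01% and 0.4% NaCl numbered 87, and 55 when only names averaging 10 CPM or more were kept, where 339 names were tested. They were 40 higher and 47 lower, but 25 and 79 with library totals only, and 32 and 23 with that filter. Between 0.01% and 4% NaCl the split of 38 and 68 became 14 and 117 with library totals only, where the median of all names shifted to -0.246. Between 4% and 0.4% NaCl 1 name was called, hsa-miR-486-5p, without library 5 of both diets. miR-31a-3p for 4% over 0.4% NaCl was 0.0023 when each diet lost its library richest in other-species names, 0.265 without library 3 of the 0.4% diet and 0.046 without library 2 of the 4% diet, where all libraries gave -0.14, and it ran from -0.47 to 0.265 over all refits. Of the 8 names most like miR-31a-5p, 5 stayed in that set by Spearman's rho under either measure. Without the 2 libraries farthest from its median, 7 of the 8 stayed by deviations and 5 with diet means left in. Without library 5 of the 0.4% and 4% diets, 4 stayed by deviations and 7 with diet means left in. The cause of these shifts was not tested. No paired analysis was run, because the labels give nothing that pairs libraries of different diets.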
